A study of Homo sapiens with 18 samples.

Results

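The IκB proteins hold NF-κB in check in the cytoplasm or tune it in the nucleus, and 6 genes of the family are described here. They are NFKBIA, NFKBIB and NFKBIE, which encode the cytoplasmic inhibitors IκBα, IκBβ and IκBε, and NFKBIZ, BCL3 and NFKBID, which encode the nuclear proteins IκBζ, BCL3 and IκBNS. They were taken by symbol from a table of 56609 gene symbols, and all 6 were among the 31872 genes tested (at least 10 counts summed over 18 libraries). In resting cells a cytoplasmic IκB covers the nuclear localization signal of NF-κB dimers. Stimulation activates the IκB kinase complex, the phosphorylated IκB is ubiquitinated and degraded, and the freed dimers induce genes that include NFKBIA itself, which closes a negative feedback loop. The nuclear members bind NF-κB on chromatin, and IκBζ is known as a rapidly induced partner of the p50 subunit that is required for a secondary set of Toll-like receptor target genes.

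The RNA came from HG3, MEC2 and PCL12, EBV-positive cell lines derived from chronic lymphocytic leukemia (CLL), a malignancy of mature B cells, and each group is labelled as a single line. MEC2 has mutated immunoglobulin heavy chain (IGHV) genes, whereas HG3 and PCL12 have unmutated ones. Stimulated cells received ODN-2006, a synthetic CpG oligonucleotide that activates the endosomal DNA receptor TLR9, at 2.5 μg·mL−1 for 4 h, and the controls were unstimulated cells of the same line. There were 3 libraries in each of the 6 groups, numbered 1 to 3, and the series' design pairs a stimulated and an unstimulated sample under each number. The labels do not say whether the replicates were separate cultures, so P values measure the spread between these samples, which may be technical.

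Total counts ran from 20382943 to 67308932 (median 34187430), and the 6 members together took 0.0421% to 0.169% of them. Levels are given in CPM (counts relative to library size, scaled with TMM factors). In this paragraph the levels of cell type markers and of genes chosen to compare lines use library totals without these factors. All 6 B-cell markers examined reached 1 CPM in every library, and the summed level of the T-cell markers stayed at or below 2.38 CPM. Of 3 genes of the CLL phenotype, CD5 lay between 21.8 and 64.7 CPM in HG3 and reached no more than 0.417 CPM in MEC2 and 1.38 CPM in PCL12. ROR1 lay between 2.03 and 28.8 CPM in HG3 and reached at most 0.374 CPM in MEC2 and 1.15 CPM in PCL12. FCER2, which encodes CD23, was present in every line, at 1443 to 2966 CPM in HG3, 285 to 516 CPM in MEC2 and 310 to 752 CPM in PCL12. Replicate 2 of unstimulated HG3 had 20.2% mitochondrial transcripts and replicate 2 of stimulated MEC2 had 19.7%, where the remaining libraries had 2.82% to 9.28%. PCL12 replicates 2 and 3 stood apart from replicate 1, both with and without CpG: 45 genes, chosen for high levels in MEC2 and low levels in PCL12 replicate 1, stood there at medians of 29.0% to 31.3% of the MEC2 level. Genes chosen in the same way for high levels in HG3 and low levels in PCL12 replicate 1 stood in the same libraries at 2.24% to 3.40% of the HG3 level. Whether these 4 libraries hold RNA or cells of MEC2 was not tested, so the PCL12 values over 3 replicates, and the differences between PCL12 and MEC2, may not describe PCL12 cells alone. Fits without PCL12 replicates 2 and 3 leave 1 library in each PCL12 group, which is then assumed to vary like the other groups.

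Because κB sites in the promoters of IκB genes are the textbook route of NF-κB feedback, the κB sequences of the members are shown first. RefSeq promoter windows (GRCh38.p14, 250 bases before to 50 after a transcript start) were used for 5 of the 6 members, all but NFKBIE. A match to the degenerate κB consensus, a motif of 10 bases searched on both strands, occurred in 7 of their 9 windows and in 11.3% of 35116 windows of the same length. The windows at the outermost RefSeq starts of NFKBID and NFKBIB held none, and the matches of these genes lie at inner starts. Each line below gives a match with the bases around it within the window, on the strand of the gene, 5′ to 3′, with the matching bases in capitals, and in the upper NFKBIB line the capitals join 2 overlapping matches.
NFKBIZ, chr3:101827757-101827786, plus strand, 223 bases before the start: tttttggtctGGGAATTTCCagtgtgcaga
NFKBIZ, chr3:101849265-101849294, plus strand, 239 bases before the inner start: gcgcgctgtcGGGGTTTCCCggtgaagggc
NFKBIA, chr14:35404811-35404840, minus strand, 81 bases before the start: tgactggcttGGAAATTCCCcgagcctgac
NFKBIB, chr19:38899931-38899960, plus strand, 28 bases before an inner start: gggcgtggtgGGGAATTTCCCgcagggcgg
NFKBIB, chr19:38899997-38900018, plus strand, 39 bases into the transcript from that start: gggcgactgcGGGGGGCCCCtg
NFKBID, chr19:35900613-35900642, minus strand, 92 bases before an inner start: agcgcgacccGGGGACTCCCaggcctgtgg
NFKBID, chr19:35899922-35899951, minus strand, 198 bases before another inner start: gggctgagcaGGAATTCCCCttgcgcgggg
BCL3, chr19:44748700-44748729, plus strand, 3 bases into the RefSeq transcript: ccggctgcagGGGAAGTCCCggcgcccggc
These matches describe the letters of the windows, and no binding was measured. The same 10 bases, GGGAATTTCC, stood before the outer start of NFKBIZ and before the inner start of NFKBIB. Read on the opposite strand, the NFKBIA match is this sequence too. After CpG, NFKBIZ had the largest and NFKBIB the smallest fitted change of the members in both MEC2 and PCL12, with NFKBIA between them. A link between these sequences and the changes was not tested.

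On GRCh38 (GENCODE 44), NFKBIZ spans chr3:101827991-101861022 on the plus strand. Its level was 36.7, 24.2 and 24.5 CPM in unstimulated MEC2 replicates 1, 2 and 3, and 144, 160.1 and 87.2 CPM after CpG. Every stimulated MEC2 library lay above every unstimulated one. The Log2FC was 2.20 ± 0.33 (SE), which met the definition of a differentially expressed gene (DEG, nominal P under 0.01 and |Log2FC| of at least 1) and an adjusted p of 0.05 (edgeR, adjusted p = 0.0154). The DEG definition was met with each MEC2 library left out, but the adjusted p stayed under 0.05 in only 2 of these 6 fits, without stimulated replicate 3 and without unstimulated replicate 1, and ran up to 0.315 in the others. It was also lost in limma-voom without the block (adjusted p = 0.245), with filterByExpr (adjusted p = 0.0586), with MEC2 fitted alone (adjusted p = 0.135) and without both MEC2 libraries of number 2 (adjusted p = 1.00). In PCL12, NFKBIZ went from 37.9, 60.4 and 37.4 CPM to 173, 174 and 97.2 CPM, again without overlap. The Log2FC of 1.71 ± 0.33 met the DEG definition, while its adjusted p over all genes was 0.541 in edgeR. The PCL12 pair of replicate 1 alone gave a log2 ratio of 2.19.

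HG3 differed in its starting level. NFKBIZ stood at 126, 93.0 and 225 CPM in unstimulated HG3, above all 6 unstimulated libraries of the other lines, and at 202, 206 and 293 CPM after CpG. The highest control exceeded the lower stimulated libraries, so the groups overlapped, although the stimulated sample was the higher member of each of the 3 pairs. The Log2FC was 0.66 ± 0.32 (edgeR, adjusted p = 1.00), and it reached 1.09 and met the DEG definition without unstimulated HG3 replicate 3. Without both HG3 libraries of number 2, the pair with the control rich in mitochondrial transcripts, it was 0.49. After CpG the levels of HG3 (234 ± 51.9 CPM, SD, n = 3) and PCL12 (148 ± 44.1 CPM, SD, n = 3) did not overlap, and those of PCL12 and MEC2 (130.5 ± 38.3 CPM, SD, n = 3) did.

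**Figure D1:**
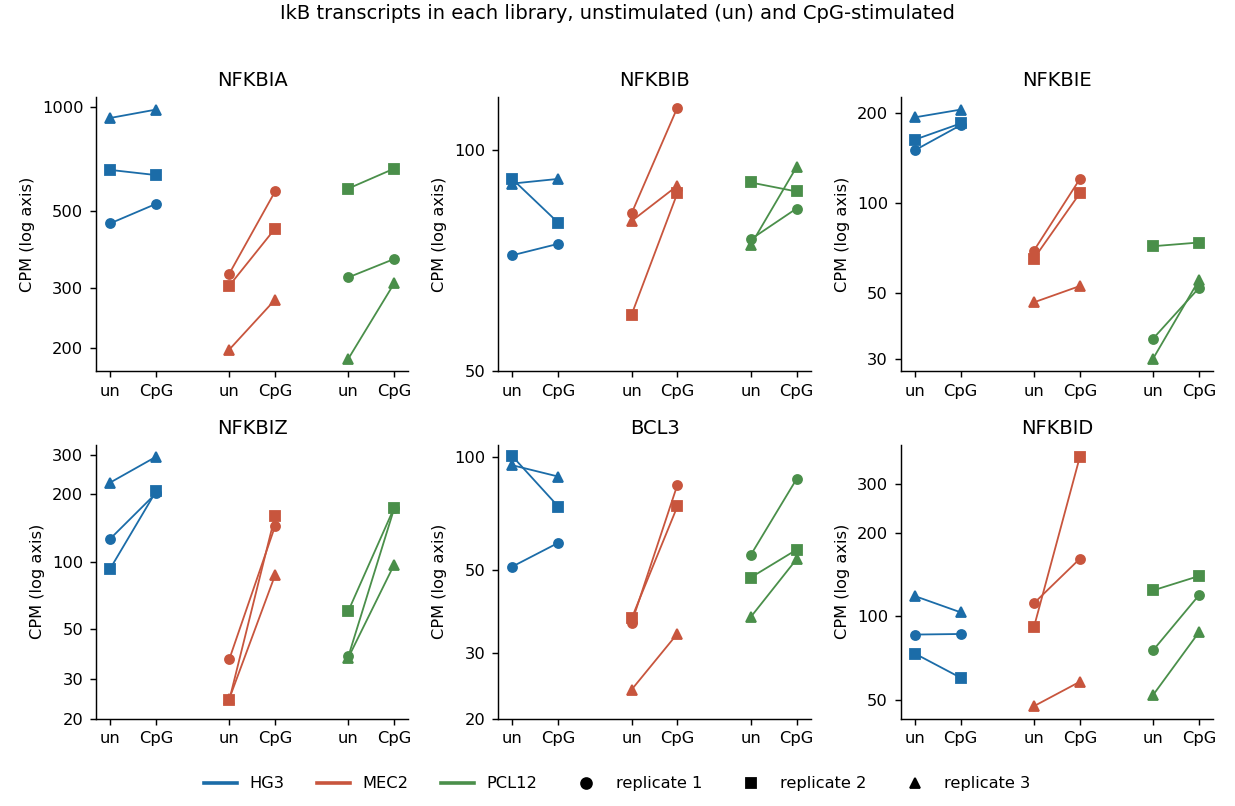
Level of each IκB transcript in CPM (log axis, a separate scale for each gene) in the unstimulated (un) and CpG-stimulated library of each replicate pair, joined by a line, with the cell line as color and the replicate number as symbol. For NFKBIZ the 3 MEC2 lines climb from 24.2 to 36.7 CPM up to 87.2 to 160.1 CPM, while HG3 starts at 93.0 to 225 CPM.

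With the replicate pairs as a block, the NFKBIZ estimates hardly moved and their adjusted p values became smaller. The blocked edgeR fit gave 2.17 in MEC2 (adjusted p = 1.39e-19), 1.70 in PCL12 (adjusted p = 2.56e-11) and 0.73 in HG3 (adjusted p = 0.139). In limma-voom with the same block the adjusted p values were 0.00131, 0.00795 and 0.747. The blocked edgeR P values behave like those of a normal distribution, as if the spread were known without error. They may therefore be too small for 3 pairs a line. Of all tested genes, 0.333% in MEC2 and 0.0471% in PCL12 passed an adjusted p of 0.05 in either direction in the blocked edgeR fit. NFKBIZ overlaps NXPE3 on the same strand, so their reads could be shared, and the part of that in the result was not tested. NXPE3 stood at 24.9 CPM in unstimulated and 19.8 CPM in stimulated MEC2, at 43.8 and 37.5 CPM in PCL12, and at 7.14 and 9.29 CPM in HG3, with Log2FC values of -0.33, -0.23 and 0.37 (edgeR, adjusted p = 1.00 for each).

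The cytoplasmic inhibitors showed smaller differences. NFKBIA (chr14:35401079-35404749, minus strand), the classic feedback inhibitor, was measured at 329, 304 and 198 CPM in unstimulated MEC2 and at 570, 445 and 277 CPM after CpG. All 3 pairs were higher after stimulation, with log2 ratios of 0.79, 0.55 and 0.48, but the spread between replicate numbers was as wide as the response and the groups overlapped (Log2FC 0.64 ± 0.38, edgeR, adjusted p = 1.00). In PCL12 the controls were 321, 581 and 187 CPM and the stimulated libraries 363, 664 and 309 CPM, so the numbers again differed more among themselves than the 2 members of a pair. HG3 had the highest group means of NFKBIA, with 460.3, 658 and 930.3 CPM without and 524, 636 and 984 CPM with CpG, and its Log2FC was 0.07 ± 0.38.

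NFKBIE (chr6:44258166-44265788, minus strand) encodes IκBε, an inhibitor that is itself induced by NF-κB. It went from 69.3, 65.2 and 46.4 CPM to 120.4, 108 and 52.7 CPM in MEC2, where replicate 3 changed least (Log2FC 0.64 ± 0.30, edgeR, adjusted p = 1.00). In PCL12 it was 35.1, 71.7 and 30.04 CPM without and 51.9, 73.8 and 55.1 CPM with CpG. The HG3 libraries lay between 150.5 and 206 CPM, and all of them stood above all libraries of the other lines. The stimulated sample was the higher one in 3 of 3 pairs in each of the 3 lines. Without PCL12 replicates 2 and 3, the PCL12 Log2FC was 0.57 in place of 0.40 for NFKBIE and 0.18 in place of 0.29 for NFKBIA (edgeR, adjusted p = 1.00 for each).

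NFKBIB (chr19:38899700-38908893, plus strand) encodes IκBβ, which is degraded and resynthesized more slowly than IκBα. Its 18 libraries spanned only 59.7 to 114 CPM. In MEC2 it was 82.0, 59.7 and 80.0 CPM without and 114, 87.4 and 89.4 CPM with CpG, groups that did not overlap, with a Log2FC of 0.39 ± 0.22 that did not pass either threshold (edgeR, adjusted p = 1.00). An exact 2-sided permutation test gave p = 0.1, the smallest value that 3 samples against 3 allow. HG3 and PCL12 gave Log2FC values of -0.04 and 0.15, the latter 0.14 without PCL12 replicates 2 and 3, and in both the stimulated sample was lower in replicate pair 2. NFKBIB overlaps SIRT2 on the opposite strand. The libraries were prepared with a stranded method, but whether the counting used strand is not given in the sources used here, and the Log2FC of SIRT2 itself lay between -0.11 and 0.07 in the 3 lines.

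The other nuclear members differed from NFKBIZ in size and in steadiness. BCL3 (chr19:44747705-44760044, plus strand), a coactivator that works with p50 and p52 dimers, stood at 36.1, 37.1 and 23.9 CPM in unstimulated MEC2 and at 84.5, 74.0 and 33.8 CPM after CpG. The libraries of replicates 1 and 2 were well above all controls, and stimulated replicate 3 fell within their range. Its Log2FC of 0.99 ± 0.32 fell just short of the fold limit of the DEG definition while its P value met the other limit (edgeR, adjusted p = 1.00), and with the replicate block it was 0.91 (edgeR, adjusted p = 0.00807; limma-voom, adjusted p = 0.232). In PCL12, BCL3 was 54.8, 47.7 and 37.4 CPM without and 87.5, 56.6 and 53.4 CPM with CpG (Log2FC 0.50 ± 0.31, edgeR, adjusted p = 1.00). In HG3 only replicate 1 was higher after stimulation, from 51.1 to 59.1 CPM, and the other pairs went from 100.7 to 73.9 CPM and from 95.3 to 88.9 CPM.

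NFKBID (chr19:35887653-35902303, minus strand), whose product IκBNS is needed for the development of B1 and marginal zone B cells in mice, gave the least even values. In MEC2 it was measured at 111, 91.4 and 47.4 CPM without stimulation and at 161, 374 and 58.0 CPM after CpG. The value of 374 CPM belongs to replicate 2, the stimulated library in which mitochondrial transcripts took 19.7% of the counts, and the part of that in the result was not tested. The Log2FC was 1.25 ± 0.51 (edgeR, adjusted p = 1.00) and 0.40 without this library (edgeR, adjusted p = 1.00), the lowest of the 6 fits with 1 library left out. The highest, 1.68 without stimulated replicate 3, met the DEG definition. Without both MEC2 libraries of number 2 it was 0.47 (edgeR, adjusted p = 1.00). With the replicate block it was 0.94 in edgeR (adjusted p = 0.00502) and 1.10 in limma-voom (adjusted p = 0.288). PCL12 gave 75.4, 124 and 52 CPM without and 119, 139.6 and 87.5 CPM with CpG (Log2FC 0.46 ± 0.50). Without PCL12 replicates 2 and 3, the PCL12 Log2FC was 0.66 for NFKBID and 0.68 for BCL3 (edgeR, adjusted p = 1.00 for both). The HG3 pairs had log2 ratios of 0.01, -0.29 and -0.19.

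Counted over the family, 1 of 6 members met the DEG definition upward in MEC2 (NFKBIZ, against 0.182% of all tested genes and 0.329% of the 7599 genes averaging 20 CPM or more). The same member met it in PCL12 (against 0.0847% and 0.0526%), and none did in HG3 (0.204% and 0.0132%). In the fit without the replicate block, NFKBIZ in MEC2 was the only member with an adjusted p under 0.05 in a single line (0.00314% of all tested genes), a call that most of the fits with 1 library left out did not keep, and NFKBIZ also passed it in the mean of the 3 lines (Log2FC 1.52 ± 0.19, edgeR, adjusted p = 0.000398, against 0.00941%). With each library left out in turn, the Log2FC in MEC2 ran from 0.38 to 0.87 for NFKBIA, 0.26 to 0.47 for NFKBIB, 0.41 to 0.92 for NFKBIE and 0.74 to 1.29 for BCL3, with the lowest value of each without stimulated replicate 1. BCL3 met the DEG definition in 3 of these 6 fits. In PCL12 it ran from 0.16 (without unstimulated replicate 3) to 0.89 (without unstimulated replicate 2) for NFKBIE, from 0.20 to 0.86 for NFKBID without the same libraries, and from 0.23 (without stimulated replicate 1) to 0.64 for BCL3. All 6 members were higher after CpG in 3 of 3 pairs in MEC2, where 11.8% of the genes averaging 20 CPM or more were. In PCL12 this held for 5 members, NFKBIB being the exception (7.36% of such genes), and in HG3 for NFKBIZ and NFKBIE (7.51%). Groups that did not overlap, with the CpG group higher, were seen for NFKBIZ and NFKBIB in MEC2 (2.82% of such genes), for NFKBIZ in PCL12 (0.829%) and for no member in HG3 (0.724%). The median Log2FC of the members was 0.81 in MEC2, 0.43 in PCL12 and 0.01 in HG3, and that of the genes averaging 20 CPM or more was -0.01, -0.01 and 0.05.

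**Figure D2:**
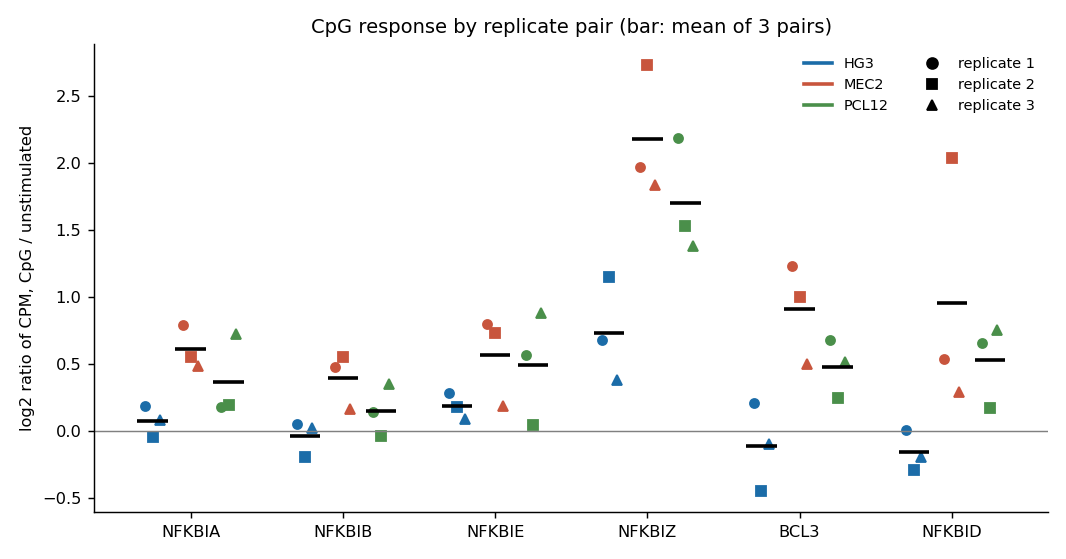
Log2 ratio of CPM (CpG over unstimulated) for each replicate pair, with the cell line as color, the replicate number as symbol and a bar at the mean of 3 pairs. NFKBIZ lies between 1.38 and 2.73 in MEC2 and PCL12 and between 0.38 and 1.14 in HG3, and the NFKBID pair of MEC2 replicate 2 stands at 2.04, apart from 0.53 and 0.29.

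The difference of the response between lines was tested next. The NFKBIZ response was higher in MEC2 than in HG3 by 1.54 ± 0.45 on the log2 scale (edgeR, adjusted p = 1.00), and no member passed an adjusted p of 0.05 in this contrast (0% of all tested genes did). With the replicate block the same difference was 1.44 ± 0.29 and passed in edgeR (adjusted p = 0.00193, as did 0.141% of all tested genes) but not in limma-voom (1.50 ± 0.30, adjusted p = 0.642). For BCL3 and NFKBID the difference between MEC2 and HG3 was 1.14 ± 0.44 and 1.40 ± 0.71 (edgeR, adjusted p = 1.00 for both). The NFKBID difference was 0.53 without stimulated MEC2 replicate 2 alone. PCL12 exceeded HG3 by 1.05 ± 0.45 for NFKBIZ (edgeR, adjusted p = 1.00), which was 0.62 without unstimulated HG3 replicate 3 and 1.53 without PCL12 replicates 2 and 3, and the differences of PCL12 from HG3 for the other members ran from 0.19 to 0.65. With each library left out in turn, the difference of PCL12 from HG3 ran from 0.38 to 0.90 for BCL3 and from 0.35 to 1.01 for NFKBID. The contrasts of MEC2 and PCL12 with HG3 use the same HG3 libraries. Between PCL12 and MEC2, all 6 estimates were below 0, from -0.79 to -0.23, with SEs of 0.31 to 0.71 (edgeR, adjusted p = 1.00 for each). Without PCL12 replicates 2 and 3 they ran from -0.61 to -0.029, the latter for NFKBIZ.

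Levels without stimulation separated HG3 from the other lines for part of the family. In unstimulated MEC2, 4 of 6 members were lower than in HG3 at an adjusted p under 0.05, against 4.97% of all tested genes and 7.05% of those averaging 20 CPM or more. NFKBIZ was lower by 2.38 ± 0.33 on the log2 scale (edgeR, adjusted p = 1.38e-05), NFKBIE by 1.49 ± 0.31 (edgeR, adjusted p = 0.00158), BCL3 by 1.35 ± 0.32 (edgeR, adjusted p = 0.00544) and NFKBIA by 1.30 ± 0.39 (edgeR, adjusted p = 0.0335). For these 4 genes the MEC2 and HG3 controls did not overlap, as for 15.3% of the genes averaging 20 CPM or more. The NFKBIA call was the least firm: it was lost when any of 5 of the 6 libraries was left out (adjusted p up to 0.153) and held only without unstimulated HG3 replicate 1 (adjusted p = 0.0205), whereas the other 3 genes kept theirs each time. NFKBIB and NFKBID differed by -0.19 ± 0.22 and -0.15 ± 0.50 and their ranges overlapped.

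In unstimulated PCL12, NFKBIE and NFKBIZ were lower than in HG3, by 1.89 ± 0.31 and 1.71 ± 0.33 (edgeR, adjusted p = 0.000121 and 0.000614), against 4.57% of all tested genes. The single unstimulated PCL12 library of replicate 1 gave differences of -2.25 and -1.95 from the 3 HG3 libraries, with the spread taken from the other groups. NFKBIA and BCL3 were at -0.91 ± 0.39 and -0.82 ± 0.32 (edgeR, adjusted p = 0.162 and 0.112), and at -1.07 and -0.57 without PCL12 replicates 2 and 3 (edgeR, adjusted p = 0.328 and 0.695). NFKBIA passed without unstimulated PCL12 replicate 2 (-1.42, edgeR, adjusted p = 0.0250) and with no filter on low counts (edgeR, adjusted p = 0.0169), and BCL3 without unstimulated HG3 replicate 1 (-1.06, edgeR, adjusted p = 0.0386). At the other end, NFKBIA was -0.58 without unstimulated PCL12 replicate 3 and BCL3 was -0.62 without unstimulated HG3 replicate 2. No member differed between unstimulated PCL12 and MEC2 at an adjusted p under 0.05, where 2.05% of all tested genes did, and NFKBIZ had the smallest P value there (0.67 ± 0.32 higher in PCL12, edgeR, adjusted p = 0.444). That difference was 0.40 without unstimulated PCL12 replicate 2 and 0.88 without unstimulated MEC2 replicate 1. Both comparisons with HG3 share its 3 control libraries.

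**Figure D3:**
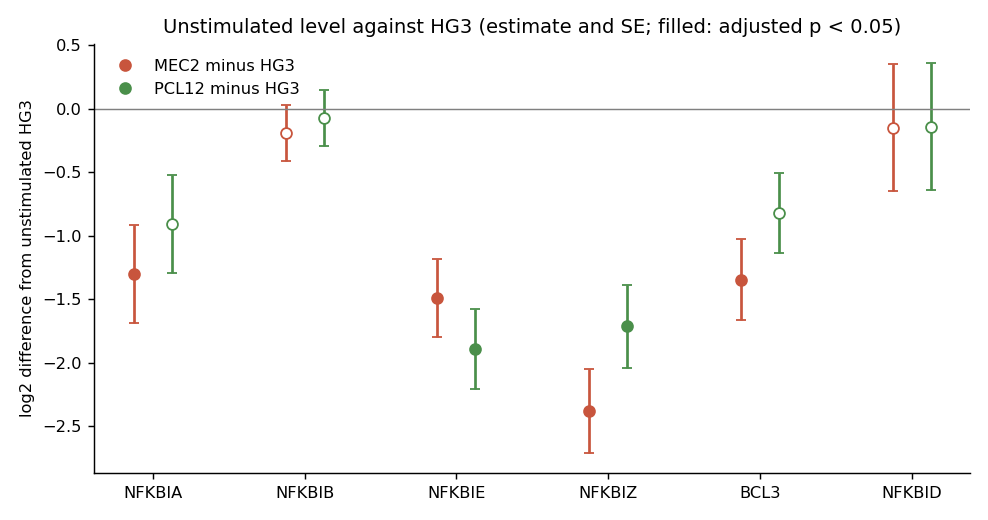
Difference of the unstimulated level of MEC2 and PCL12 from HG3 on the log2 scale (estimate and SE from edgeR, 3 libraries a group), with filled points for an adjusted p under 0.05. The filled points lie between -2.38 and -1.30, and NFKBIB and NFKBID lie between -0.19 and -0.08 in both lines.

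Ordered by mean level over the 6 groups, NFKBIE fell into HG3 above and the other lines below, with a gap between unstimulated HG3 (lowest library 150.5 CPM) and stimulated MEC2 (highest library 120.4 CPM). For NFKBIZ the gaps lay lower in the order. The stimulated MEC2 libraries (lowest 87.2 CPM) stood clear of unstimulated PCL12 (highest 60.4 CPM), and unstimulated PCL12 (lowest 37.4 CPM) lay by a narrow margin above unstimulated MEC2 (highest 36.7 CPM). BCL3 had a single gap, also narrow, between unstimulated PCL12 (lowest 37.4 CPM) and unstimulated MEC2 (highest 37.1 CPM). Neighboring groups overlapped at every step of the order for NFKBIA, NFKBIB and NFKBID.

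Likeness between members was described by correlation. Over the 9 pair ratios, pooled over lines with different means, Pearson's r between members ranged from 0.515 (NFKBIA and NFKBIZ) to 0.908 (NFKBIB and BCL3), and over the levels in 18 libraries from 0.225 (NFKBIB and NFKBIE) to 0.845 (NFKBIA and NFKBIE), a description without a test, since pairs of a line and libraries of a pair share their source and their scaling. Within a line the order of the pairs differed between members: in HG3, pair 2 had the highest ratio for NFKBIZ (1.14) and the lowest for NFKBIA (-0.05), NFKBIB (-0.20), NFKBID (-0.29) and BCL3 (-0.45). HG3 pair 2 holds the control rich in mitochondrial transcripts, and the part of that library in this order was not tested. In PCL12, pair 3 had the lowest ratio for NFKBIZ (1.38) and the highest for NFKBIA (0.73), NFKBIB (0.35), NFKBIE (0.88) and NFKBID (0.75). Among 10653 genes averaging 5 CPM or more, the genes most like each member were named by the highest r over 18 libraries and over 9 ratios. For NFKBIZ they were MDFIC (0.939) and PPM1A (0.876) by level, and RFFL (0.954) and MAP3K8 (0.935), a kinase held by the p105 form of NFKB1, by ratio. For NFKBIE they were TFEB (0.981) and TNFAIP3 (0.962), which encodes the NF-κB inhibitor A20, by level, and CERS4 (0.949) and IER5 (0.898) by ratio. NFKBIA was closest to CEBPG (0.947) and IER5 (0.934) by level and to RCC2 (0.952) and RHOV (0.951) by ratio. NFKBIB was closest to RCC2 (0.897) and BATF (0.724), then RHOV (0.960) and TRIP10 (0.958). BCL3 was closest to TRIP10 (0.932) and PPP1R9B (0.911), then CCDC28B (0.958) and GADD45B (0.952), an early response gene of NF-κB. NFKBID was closest to AP5Z1 (0.923) and SH2D3A (0.910), then CNTNAP1 (0.991) and PASK (0.976), and its ratios hold the single pair at 2.04.

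The genes around the IκB proteins were examined as 6 lists with 35 genes in all: NF-κB subunits, IκB kinases and upstream kinases, the ubiquitin ligase of IκB, proteins that bind or modify IκB, regulators of NFKBIZ mRNA decay, and genes known to need IκBζ. In MEC2, 3 of the 35 met the DEG definition upward (0.182% of all tested genes) and none downward (0.069%). They were ZC3H12A, NFKB2 and CSF3. ZC3H12A encodes Regnase-1, a ribonuclease that degrades mRNAs of inflammatory genes, NFKBIZ among them. Like its target it met the definition in both MEC2 and PCL12. It went from 62.0, 48.5 and 35.6 CPM to 210.0, 215 and 90.1 CPM in MEC2 (Log2FC 1.82 ± 0.31, edgeR, adjusted p = 0.0587). In PCL12 it went from 43.4, 61.0 and 34.8 CPM to 137, 140.2 and 97.5 CPM (Log2FC 1.43 ± 0.31, edgeR, adjusted p = 1.00), the only pathway gene that met the definition there. In HG3 it did not meet it (Log2FC 0.61 ± 0.30, edgeR, adjusted p = 1.00), although 61.9, 81.3 and 105 CPM without and 117, 114.6 and 149 CPM with CpG did not overlap. In the mean of the 3 lines it was 1.29 ± 0.18 (edgeR, adjusted p = 0.00161). With the replicate block the adjusted p of ZC3H12A was 1.87e-12 in MEC2 and 6.11e-08 in PCL12 in edgeR, and 0.00105 and 0.00795 in limma-voom. Without PCL12 replicates 2 and 3 its Log2FC was 1.66 in PCL12, and the mean of the 3 lines was 1.37 (edgeR, adjusted p = 0.107).

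NFKB2, the precursor of p52 and, as p100, itself an IκB-like inhibitor, went from 301, 275 and 207 CPM to 583, 828 and 288 CPM in MEC2 (Log2FC 1.12 ± 0.34, edgeR, adjusted p = 1.00), with the stimulated replicate 3 inside the range of the controls. Without both MEC2 libraries of number 2 it was 0.78 and no longer met the definition, and with the replicate block it was 1.01 in edgeR (adjusted p = 0.00218) and 1.07 in limma-voom (adjusted p = 0.112). It was the subunit with the smallest P value in PCL12 too (Log2FC 0.46 ± 0.34, and 0.71 without PCL12 replicates 2 and 3), and in HG3 this was NFKB1, the precursor of p50 (Log2FC 0.38 ± 0.42). A P value under 0.05 was reached upward by 7 of the 35 genes in MEC2 (1.51% of all tested genes), by 2 in PCL12 (1.37%) and by none in HG3 (1.58%). Downward it was reached by none in any line (0.944%, 0.718% and 2.15%). Among the kinases, IKBKE, a noncanonical IκB kinase, had the smallest P value in MEC2 (Log2FC 0.86 ± 0.28) and in PCL12 (0.36 ± 0.28, and 0.56 without PCL12 replicates 2 and 3), and in HG3 it was CHUK, the IKKα subunit (0.28 ± 0.33). With the replicate block, IKBKE in MEC2 was 0.85 in edgeR (adjusted p = 0.0317) and 0.86 in limma-voom (adjusted p = 0.607). It was 0.41 without both MEC2 libraries of number 2, and it met the DEG definition without stimulated replicate 1 (1.01) and without unstimulated replicate 3 (1.11). Among the proteins that bind or modify IκB it was TNFAIP3 in MEC2 (0.89 ± 0.41) and PCL12 (0.35 ± 0.41, and 0.63 without PCL12 replicates 2 and 3), and in HG3 PIR, a nuclear partner of BCL3, with 64 counts in the unstimulated library rich in mitochondrial transcripts and 6 and 8 in the other controls. No gene of the ubiquitin ligase list reached a P value under 0.05, and its smallest P values belonged to BTRC in MEC2 (-0.31 ± 0.25), CUL1 in PCL12 (0.12 ± 0.23, and 0.21 without replicates 2 and 3) and RBX1 in HG3 (-0.47 ± 0.31). All genes of this paragraph had an adjusted p of 1.00 in these contrasts without the block.

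**Figure D4:**
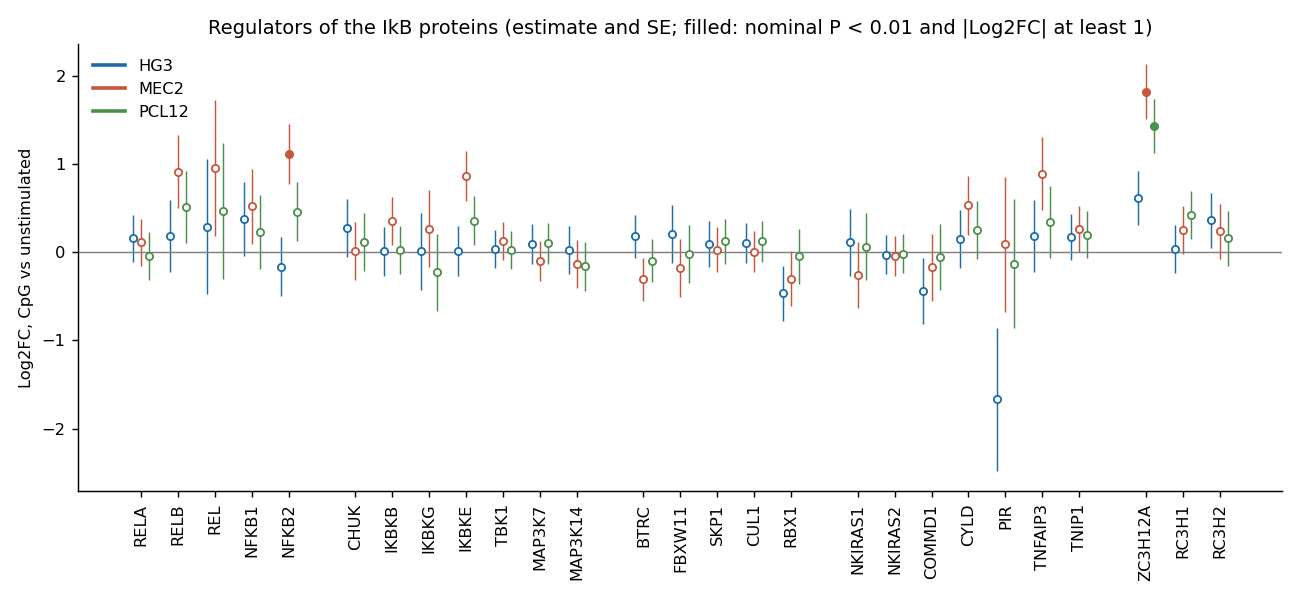
Log2FC of CpG-stimulated against unstimulated cells for the NF-κB subunits, IκB kinases, ubiquitin ligase, IκB-binding proteins and mRNA decay regulators (estimate and SE from edgeR), with filled points for genes that met the DEG definition. ZC3H12A in MEC2 and PCL12 (1.82 and 1.43) and NFKB2 in MEC2 (1.12) are the filled points.

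Of the 8 genes known from other cells to need IκBζ, CCL20 and LCN2 were named after their values were seen. CCL20, a chemokine, lay between 42.7 and 153 CPM in HG3 and at or below 6.98 CPM in the other lines. LCN2, an iron-binding defense protein, reached 16.9 CPM in unstimulated HG3 replicate 2 and 12.4 CPM in unstimulated MEC2 replicate 2. CSF3 and IL6 were near the limit of detection. CSF3, the granulocyte growth factor, had 6, 8 and 3 counts in the stimulated MEC2 libraries and 0 in each control. Its mean was at least 1.77-fold higher against a floor of 3 counts per control library, although stimulated replicate 3 is itself at that floor. It met the DEG definition in 10 of 16 other settings, but in only 2 of the 6 fits with 1 library left out. It held between 5 and 58 counts in 5 HG3 libraries and 1 in the other. In PCL12, CSF3 had 16, 13 and 7 counts with CpG and 0, 3 and 1 without it, groups that did not overlap. IL6 had 4, 6 and 0 counts in stimulated MEC2 against 0, a level at or under that floor, and 22, 1 and 3 counts in stimulated PCL12 against 0, which makes their mean at least 1.59-fold higher. That bound rests on replicate 1, since the other stimulated PCL12 libraries are themselves at or under the floor of 3 counts. Its HG3 libraries held 22, 5 and 7 counts with CpG and 11, 0 and 4 without it. Both genes met the DEG definition upward in the mean of the 3 lines, at these counts, and without PCL12 replicates 2 and 3 CSF3 did and IL6 did not. Of all tested genes, 0.527% met it in either direction in that mean over all libraries. The floor covers counting error only, because duplicate reads from PCR, where kept, add counts without adding molecules.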

How the data were processed

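The authors deposited raw gene counts (56609 symbols, 18 libraries) without normalization. The submitters' processing notes name Trimmomatic, STAR, featureCounts and hg38, with no versions, annotation or strand option of the counting given in the sources used here; the paper describes the libraries as stranded (reverse). The paper and the labels name different RNA kits, and the labels name a 3′ library kit (QuantSeq), so levels were not compared between genes. No column was left out. The members and gene lists were chosen with earlier results of these data known, and the lists were written from textbook knowledge. Named genes are the members, pathway genes that met the DEG definition or an adjusted p under 0.05, and the gene with the smallest P value of each list and line; the genes most like each member follow the rule given beside them. Counts were fitted with edgeR 4.0.16 (R 4.3.3; TMM, 6 group means, robust quasi-likelihood, 12 residual degrees of freedom), with Benjamini-Hochberg adjustment over 31872 genes. CPM, correlations and permutation tests used the same factors, except the levels of cell type markers and of genes chosen to compare lines, which used library totals. Alternatives were DESeq2 1.42.0, limma 3.58.1 (voom), replicate blocks, other scalings and filters, and libraries left out. After removal of group means, libraries of the same number correlated in HG3 (0.495, 0.568 and 0.775), PCL12 (0.747, 0.675 and 0.593) and MEC2 (0.298, 0.146 and 0.760), and the design text pairs them by number. Methods were also run on simulated counts with a common profile for all lines. That simulation had no replicate pairs and no outlying libraries, so it cannot judge the blocked fits or the effect of such libraries.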

Additional observations from a re-analysis of the deposited data

Results flagged for a closer look

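The CpG response of NFKBIZ was set apart because it differed between 2 cell lines by a direct test. With the replicate block, the response was higher in MEC2 than in HG3 by 1.44 ± 0.29 on the log2 scale (edgeR, adjusted p = 0.00193, passed by 45 of 31872 genes), and the stimulated library was the higher one in 3 of 3 pairs of each line. Without the block the difference was 1.54 (edgeR, adjusted p = 1.00), and in limma-voom with the block it was 1.50 (adjusted p = 0.642). The blocked edgeR P value treats the spread as known, so it may be too small for 3 pairs a line. Groups of 3 libraries are too small for the test of single outlying samples, so none was made.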

How the results depend on the processing

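Of 1287 values recomputed under another setting, 1220 kept their direction and their side of the threshold, 34 changed direction, 16 passed a threshold newly and 17 no longer did. NFKBIZ met the DEG definition in MEC2, in PCL12 and in the mean of the 3 lines under every alternative that was run, and so did ZC3H12A, while the adjusted p of NFKBIZ in MEC2 passed 0.05 in 2 of 6 fits with a library left out and in 6 of 10 other settings. NFKB2 in MEC2 met it in 13 of 16 settings. In MEC2, members meeting it numbered 1 in the fit described, 2 with DESeq2, 2 with limma-voom and the replicate block, 3 with no filter on low counts and 1 to 3 with each library left out, the additions being NFKBID and BCL3. Over all tested genes and in either direction, 0.251%, 0.439%, 0.687% and 0.53% met it in the first 4 of these fits, and 0.517% without stimulated MEC2 replicate 3, which gave the 3 members. The member calls were all upward. In HG3 the count was 0 to 1 with each library left out, and the fit that gave 1 (without unstimulated HG3 replicate 3) called 0.974% of all genes in either direction in place of 0.496%. For the difference of MEC2 and HG3, edgeR with the replicate block called 1 member where the fit without it called 0, and 45 of all tested genes where that fit called 0. That block also brought NFKBID (0.94, adjusted p = 0.00502) and BCL3 in MEC2, and NFKBID in the mean of the 3 lines (0.44, adjusted p = 0.0453), under an adjusted p of 0.05, and raised the number of genes under it to 43 in HG3, 106 in MEC2 and 15 in PCL12. In the stimulated-against-unstimulated pairs of MEC2, replicate 1 with CpG correlated more with unstimulated replicate 2 (0.551) than with replicate 1 (0.298), and replicate 2 with CpG more with unstimulated replicate 1 (0.508) than with replicate 2 (0.146), so the blocked values of MEC2 rest on the numbers given in the labels. No paired fit of the unstimulated comparisons was run, because the replicate numbers are nested in the lines. Leaving out both MEC2 or both HG3 libraries of number 2 was chosen after seeing the data.

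The values that changed direction passed no threshold on either side, and the largest of them with all libraries were -0.79 for NFKBID in the difference of PCL12 and MEC2 and 0.39 for NFKBIA in unstimulated PCL12 minus MEC2. With library totals in place of TMM factors, NFKBIB was 0.021 for CpG in HG3 and 0.091 for unstimulated PCL12 minus HG3, where NFKBID was 0.034. Without both HG3 libraries of number 2, NFKBIB and BCL3 were 0.035 and 0.016 for CpG in HG3. For unstimulated PCL12 minus MEC2, NFKBIB was -0.018 without both MEC2 libraries of number 2, and NFKBID was -0.021 in limma-voom and -0.11 without PCL12 replicates 2 and 3. With each library left out in turn, the CpG change in HG3 ran from -0.24 to 0.35 for NFKBIA, -0.14 to 0.041 for NFKBIB, -0.34 to 0.063 for NFKBID and -0.40 to 0.041 for BCL3, and in PCL12 from -0.12 to 0.81 for NFKBIA. The difference of PCL12 and HG3 ran from -0.19 to 0.74 for NFKBIA and -0.020 to 0.71 for NFKBIE. The difference of PCL12 and MEC2 ran from -0.74 to 0.19 for NFKBIA, -0.52 to 0.27 for NFKBIE and -1.22 to 0.058 for NFKBID. Unstimulated levels ran from -0.39 to 0.13 for NFKBID in MEC2 minus HG3, -0.17 to 0.011 for NFKBIB and -0.53 to 0.13 for NFKBID in PCL12 minus HG3, and -0.13 to 0.71 for NFKBIA, -0.017 to 0.19 for NFKBIB and -0.39 to 0.27 for NFKBID in PCL12 minus MEC2. The cause was not tested.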
